A study of Mus musculus with 20 samples.

Results

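The genes described here are 10 that natural killer (NK) cells and cytotoxic T lymphocytes use to recognise and kill other cells: Nkg7, Prf1, Gzma, Gzmb, Gzmk, Ctsw, Klrd1, Klrk1, Ncr1 and Xcl1. They were picked by name, and a probe was taken where its array annotation, or the current symbol of its transcript accession, was 1 of these names. This gave 11 of the 41174 distinct probes on the array and 10 of its 28786 gene symbols, with 2 probes for Nkg7 and 1 for every other gene. The brighter Nkg7 probe was used and the other is given beside it. RNA came from liver and white adipose tissue (WAT) of male mice labelled C57BL/6 and aged 7 months, which had all eaten a high-fat diet with 35% fat for 21 weeks, so no group on a standard diet enters these comparisons. The 4 groups were wild type liver, CD44-deficient liver, wild type WAT and CD44-deficient WAT, called WT(HFD) and CD44KO(HFD), with 5 Agilent one-colour arrays in each. The CD44KO line carries a germline loss of Cd44, backcrossed onto C57BL/6J, so every cell type lacked the gene and no result can be assigned to a lineage. CD44 is the surface receptor for hyaluronan. The question was which of the killing genes changed in each tissue when it was missing.

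NK cells and cytotoxic T cells carry granules filled with perforin and granzymes. After contact with a target cell the granules fuse with the membrane, perforin opens pores, and the granzymes, which are serine proteases, enter the target and start its death. NK cells decide through the balance of activating receptors such as NKG2D and NKp46 and inhibitory receptors that read MHC class I, and liver is known for holding many NK and NK-like cells.

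The probes are 60 bases long and were placed by the array files on mouse build mm7. The set below is shown because each value in the text is the brightness of 1 such short stretch and nothing else of the transcript. Prf1 was read on chr10:60821367-60821426 (plus strand), Gzma on chr13:110251676-110251735 and Gzmk on chr13:110327790-110327849 (both minus strand), Ctsw on chr19:5360177-5360236 (minus), Klrd1 on chr6:129621685-129621744 (plus), Xcl1 on chr1:164899708-164899767 (minus), and the dimmer Nkg7 probe on chr7:39613348-39613407 (plus).
Prf1: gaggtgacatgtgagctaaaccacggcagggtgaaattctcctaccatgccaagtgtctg
Gzma: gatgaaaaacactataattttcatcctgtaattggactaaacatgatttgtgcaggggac
Gzmk: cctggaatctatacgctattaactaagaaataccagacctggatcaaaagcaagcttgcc
Ctsw: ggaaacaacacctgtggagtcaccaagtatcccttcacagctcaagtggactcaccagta
Klrd1: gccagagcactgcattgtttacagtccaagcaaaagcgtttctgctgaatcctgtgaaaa
Xcl1: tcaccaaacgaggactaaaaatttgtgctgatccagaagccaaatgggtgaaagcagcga
Nkg7, dimmer probe: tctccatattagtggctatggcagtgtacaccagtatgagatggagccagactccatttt

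The remaining probes lie on chr14:51126432-51126491 for Gzmb (minus), chr6:129635158-129635217 for Klrk1 (minus), chr7:3902600-3902659 for Ncr1 (plus) and chr7:39613682-39613741 for the brighter Nkg7 probe (plus). Gzma and Gzmk lie close together on chromosome 13, and Klrd1 and Klrk1 close together on chromosome 6.

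Promoters of the members were read for the core letters of the Runx factors (TGTGGT) and for a T-box half-site (TCACAC). Both factor families act in cytotoxic lymphocytes. RefSeq promoters on build GRCm38.p6 were at hand for 8 of the 10 genes, and the window was the 250 bases before the start. On either strand TGTGGT was found in at least 1 promoter of 7 of the 8 genes and in 14% of 32851 promoters of the same length, and TCACAC in 5 of the 8 and in 12.3% of all. A gene was counted when any of its promoters matched, and Ncr1 had more than 1, whereas the shares over all are per promoter. No match of 1 motif overlapped a match of the other. Gzmb (chr14:56262335-56262584, minus strand) and Prf1 (chr10:61297586-61297835, plus strand) are shown because they had the largest liver differences among the members that passed the test. Capitals mark the matches, written on the gene's strand. A match is a run of letters and shows no binding, and its part in the liver differences was not tested.
Gzmb promoter: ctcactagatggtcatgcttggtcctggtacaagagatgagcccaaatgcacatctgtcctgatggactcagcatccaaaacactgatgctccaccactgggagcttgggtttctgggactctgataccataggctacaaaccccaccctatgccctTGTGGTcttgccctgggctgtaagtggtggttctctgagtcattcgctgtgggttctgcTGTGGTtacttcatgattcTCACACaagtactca
Prf1 promoter: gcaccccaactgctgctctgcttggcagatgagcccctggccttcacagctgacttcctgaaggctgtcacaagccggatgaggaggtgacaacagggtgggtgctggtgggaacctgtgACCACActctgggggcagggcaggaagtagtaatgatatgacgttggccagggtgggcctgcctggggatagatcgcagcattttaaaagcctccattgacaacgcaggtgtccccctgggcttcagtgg

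Every level below is the log2 of the processed signal minus the array's own 75th percentile of it, so 0 is the 75th percentile and a step of 1 is a doubling of the signal. The targeted gene matched the labels in both tissues: Cd44 was 0.48 ± 0.28 in WT(HFD) and -3.74 ± 0.41 in CD44KO(HFD) liver, and 4.07 ± 0.37 and -0.51 ± 0.13 in WAT (SD, n = 5). The hepatocyte gene Alb had a mean of 10.25 in WT(HFD) liver and the adipocyte gene Adipoq 6.57 in WT(HFD) WAT. Between 57.4% and 61.9% of probes were well above background on the liver arrays and between 63.2% and 89.5% in WAT. The highest share belonged to WT(HFD) WAT replicate 1, whose median correlation with the other arrays of its group was 0.838 over all probes, against 0.973 to 0.981 for the other 4. Liver and WAT arrays were run on different slides and scanners, so tissue and scanner cannot be told apart.

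In liver all 10 members had a lower mean in CD44KO(HFD) than in WT(HFD), with a median difference of -1.37, and 6 of them passed the test. The 10 include Klrk1 and Ncr1, whose probes were not well above background on any liver array, and under normexp background correction the means of Klrk1 (0.35), Ncr1 (0.27) and Xcl1 (0.14) were higher in CD44KO(HFD). Nkg7 and Gzmb, genes of the killing granule, were 2.50-fold and 3.68-fold lower with no overlap between the groups. The granule genes Gzma and Prf1 were lower as well, without overlap, but each was well above background on 1 of the 5 CD44KO(HFD) arrays, so no fold is given for them. Klrd1, a receptor chain, and Ctsw, a cysteine protease of cytotoxic cells, were lower by 1.96-fold and 1.32-fold with overlapping groups. The test was limma's moderated test over 24689 probes with Benjamini-Hochberg adjusted p under 0.05, by which 5.75% of probes were lower and 7.85% higher in CD44KO(HFD), and 4.22% were lower without overlap. The median difference over all tested probes was 0.08. Of the 10 members, 4 (Nkg7, Gzmb, Ctsw and Klrd1) were well above background on at least 3 arrays in both groups, and all 4 passed. Another 3 (Gzma, Prf1 and Gzmk) entered the test through the WT(HFD) arrays only, which favours a lower CD44KO(HFD) mean, and 3 (Xcl1, Klrk1 and Ncr1) were too dim to be tested. In whole tissue, fewer cells of a type and less RNA per cell cannot be told apart.

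**Figure D1:**
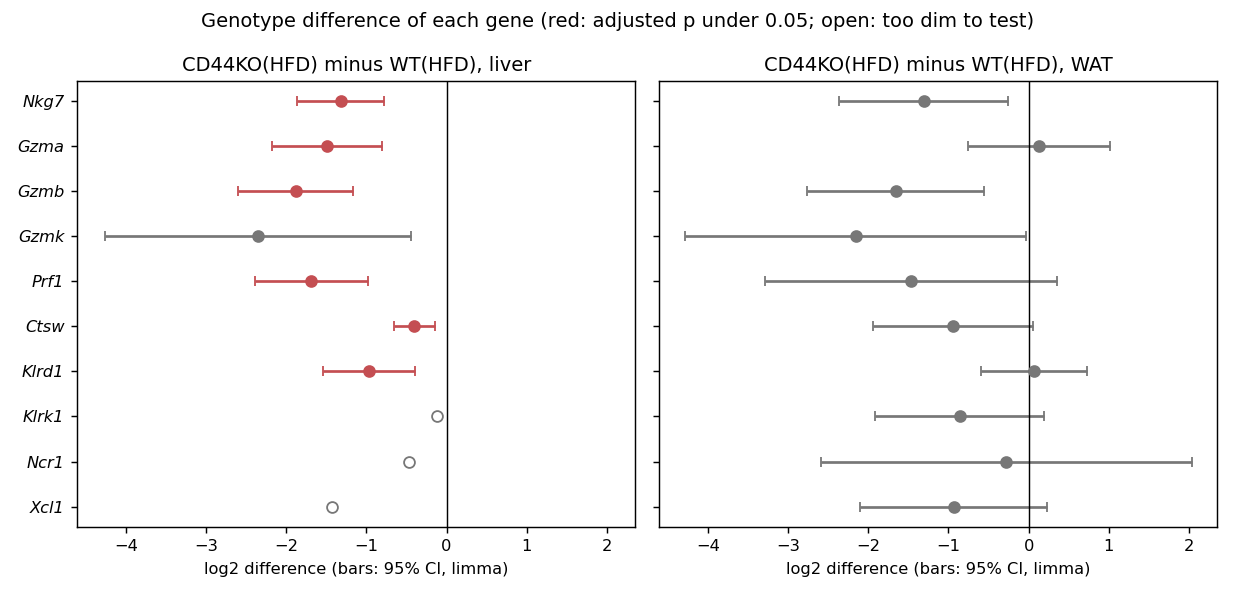
Difference CD44KO(HFD) minus WT(HFD) in log2 units for each member in liver and in WAT, as points with 95% confidence intervals from limma. Red marks an adjusted p under 0.05 and open symbols genes too dim to be tested. The 6 red points all lie in liver, between -0.40 for Ctsw and -1.88 for Gzmb, whereas the WAT intervals are wider and no WAT point is red.

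Nkg7 encodes a granule membrane protein needed for the release of cytotoxic granules. Its WT(HFD) liver levels were -1.03, -1.46, -0.03, -1.19 and -0.40 in replicates 1 to 5, and its CD44KO(HFD) levels -1.98, -2.25, -2.04, -2.21 and -2.25. The CD44KO(HFD) arrays lay close together and all below the lowest WT(HFD) array, replicate 2. The difference was -1.32 (SE 0.24, limma adjusted p = 0.0146), and an exact permutation test over the 10 arrays gave the smallest p it can give, 0.0079 (two-sided). The dimmer probe gave -1.43 (SE 0.23, limma adjusted p = 0.0103).

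Prf1, perforin, forms the pores through which granzymes enter. It was -3.72, -3.85, -3.66, -4.41 and -4.00 on the WT(HFD) liver arrays and -4.97, -5.92, -4.77, -5.90 and -6.53 on the CD44KO(HFD) arrays. The groups did not overlap, although only replicate 3 of the CD44KO(HFD) arrays and 4 of the WT(HFD) arrays were well above background. The difference in processed signal was -1.69 (SE 0.32, limma adjusted p = 0.0153), but the probe entered the test through WT(HFD) only, the difference under normexp was -0.064, and the CD44KO(HFD) mean of -5.62 ± 0.73 rests mostly on signals near background.

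Of the granzymes, Gzmb, whose product cleaves caspases in the target cell, had the largest difference that passed. Its levels were -2.70, -3.82, -2.11, -2.67 and -2.36 in WT(HFD) liver and -4.75, -3.96, -4.63, -5.25 and -4.47 in CD44KO(HFD) liver. WT(HFD) replicate 2 was lowest of its group and came close to the highest CD44KO(HFD) array, also replicate 2, without overlap. The difference was -1.88 (SE 0.32, limma adjusted p = 0.0120), or 3.68-fold.

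Gzma, a tryptase-like granzyme, was -4.01, -4.03, -2.82, -4.09 and -3.24 in WT(HFD) liver, well above background on all 5 arrays. In CD44KO(HFD) liver it was -5.27, -5.04, -4.49, -5.90 and -4.95, and only replicate 3 was well above background. Every CD44KO(HFD) array lay below every WT(HFD) array, and the difference in processed signal was -1.49 (SE 0.31, limma adjusted p = 0.0186). This probe too entered the test through WT(HFD) only, and under normexp the difference was -0.11.

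Gzmk, another tryptase-like granzyme, was -6.98, -2.35, -4.76, -1.94 and -4.96 in WT(HFD) liver, a range wider than that of any other member there. In CD44KO(HFD) liver it was -7.21, -6.81, -6.18, -5.60 and -6.95, near background on every array. WT(HFD) replicate 1 lay among the CD44KO(HFD) arrays, so the groups overlapped. The difference of -2.35 (SE 0.86) did not pass (limma adjusted p = 0.0913), and WT(HFD) was at least 1.45-fold brighter, against the lowest signal that was well above background on the CD44KO(HFD) arrays. Without WT(HFD) replicate 1 the difference was -3.05 with an adjusted p of 0.0371, and with the slide as a block the adjusted p was 0.0433.

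Ctsw, cathepsin W, was well above background on all 10 liver arrays and had the smallest spread of the members among the WT(HFD) arrays. Its levels were -2.12, -2.67, -2.33, -2.56 and -2.36 in WT(HFD) and -2.65, -2.96, -2.79, -2.96 and -2.68 in CD44KO(HFD). WT(HFD) replicate 2 fell just under the highest CD44KO(HFD) array, replicate 1. The difference was -0.40 (SE 0.12, limma adjusted p = 0.0462).

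**Figure D2:**
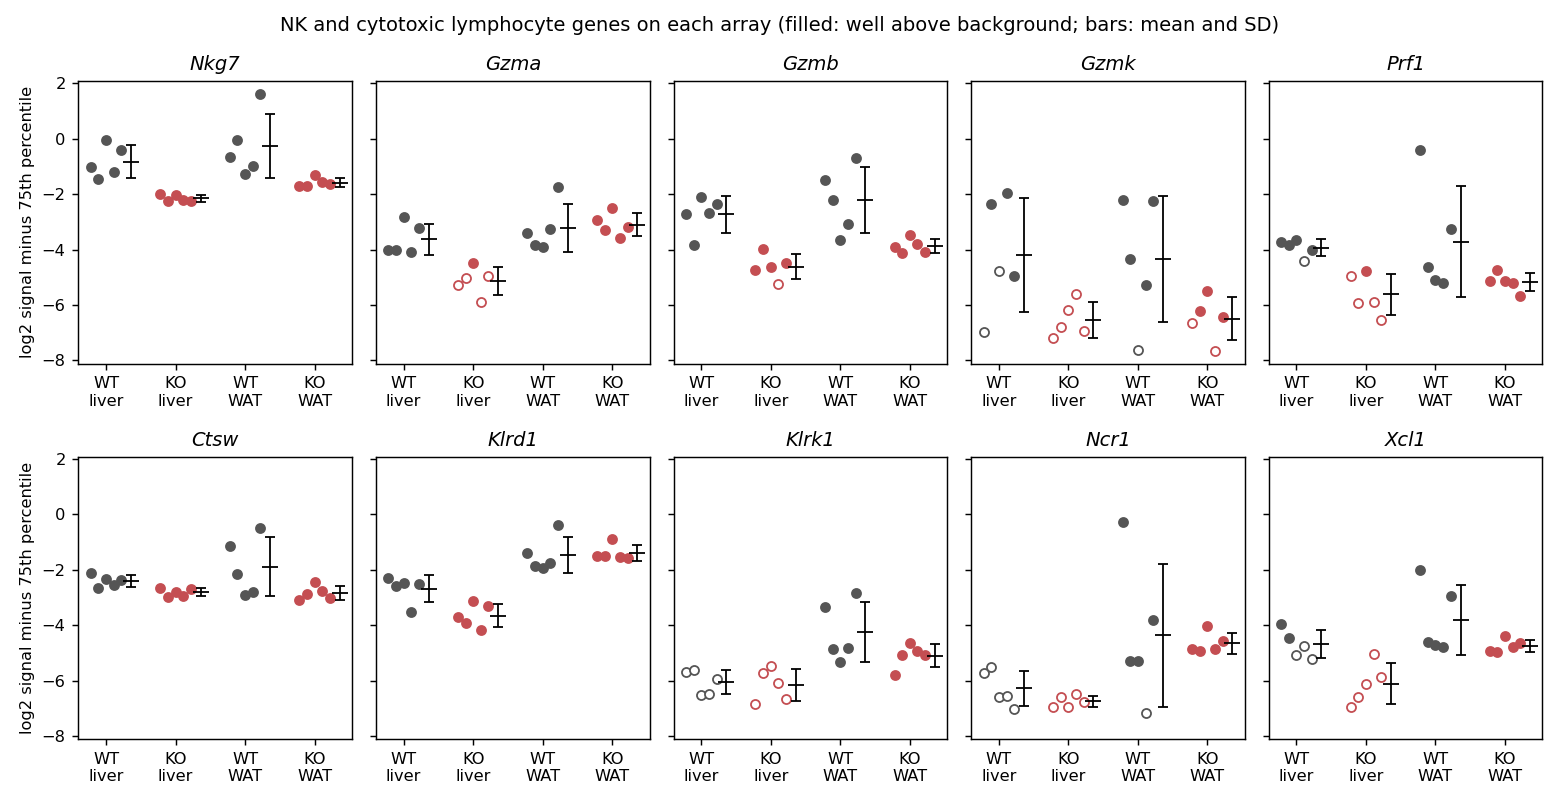
Log2 level relative to the array's 75th percentile for each member on each of the 20 arrays, with mean and SD (n = 5) as bars; KO stands for CD44KO(HFD), and open points were not well above background. In liver the Nkg7, Gzma, Gzmb and Prf1 points of the 2 genotypes do not overlap, and in WAT the WT(HFD) points spread over a wider range than the CD44KO(HFD) points for every member.

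Among the receptors, Klrd1 encodes CD94, which pairs with NKG2 chains to read the non-classical class I molecule Qa-1. It was -2.30, -2.57, -2.48, -3.53 and -2.52 in WT(HFD) liver and -3.71, -3.91, -3.14, -4.18 and -3.31 in CD44KO(HFD) liver. WT(HFD) replicate 4 stood apart from the rest of its group and lay among the CD44KO(HFD) arrays. The difference was -0.97 (SE 0.26, limma adjusted p = 0.0373). Klrk1, which encodes the activating receptor NKG2D, ranged from -6.51 to -5.62 in WT(HFD) and from -6.86 to -5.49 in CD44KO(HFD) liver, and Ncr1, which encodes NKp46, from -7.03 to -5.51 and from -6.96 to -6.49. Neither was well above background on any of the 10 liver arrays, so no fold is given for them. Ncr1 is the member most specific to NK cells, so the liver arrays hold no measured level of that marker.

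Xcl1, a chemokine of activated NK and CD8 T cells that draws XCR1-bearing dendritic cells, was -3.94, -4.45, -5.06, -4.74 and -5.24 in WT(HFD) liver and -6.95, -6.59, -6.13, -5.02 and -5.87 in CD44KO(HFD) liver. The probe was well above background on WT(HFD) replicates 1 and 2 only, so it was not tested. WT(HFD) was at least 1.04-fold brighter, which leaves the size of the difference unmeasured. The study listed Xcl1 among its chemokines on the strength of these arrays, so its lower mean is not independent evidence.

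The liver differences were also read within slides, each of which held both genotypes. All 10 members had a lower CD44KO(HFD) mean on slides 1 and 3 and 9 of 10 on slide 2, where slide 3 held 1 array of each genotype. Leaving out any 1 of the 10 arrays, Nkg7, Gzma, Gzmb and Prf1 passed in every fit, with differences of -1.48 to -1.12, -1.65 to -1.29, -2.15 to -1.72 and -1.90 to -1.46. Klrd1 passed only without WT(HFD) replicate 4 or without CD44KO(HFD) replicate 3, and Ctsw only without WT(HFD) replicate 4. Under normexp background correction, which added an offset of 50 to each corrected signal, no member passed. Nkg7 was then -0.87 (adjusted p = 0.0807). That fit gave CD44KO(HFD) liver replicate 3 a background mean of -242, against -0.93 to 17.3 on the other liver arrays, and without it 5 members passed with smaller differences, -1.03 for Nkg7, -0.69 for Gzmb, -0.54 for Klrd1, -0.43 for Gzma and -0.37 for Prf1. With no filter on dim probes all 10 members entered and 4 passed, where 1.4% of 41174 probes were lower. In a fit that shared its spread with the WAT arrays only Gzma and Gzmb passed. For the other liver alternatives the share of all probes passing was not counted.

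Other genes of the pathway were read from lists, each by its brightest probe, and few NK receptors could be seen in liver. Of 14 other NK receptors on the array 4 were bright enough to test and 1 fell: Cd244a, the receptor 2B4 of NK and CD8 T cells (difference -1.02, limma adjusted p = 0.0268). Klrb1c, which encodes NK1.1, differed by -0.19 (adjusted p = 0.546) and Crtam by -0.23 (0.535). The list's median was -0.21. Neither Klra7 nor Klrg1 was bright enough. Of the receptor adaptors 3 were tested and none passed: Hcst, the DAP10 adaptor of NKG2D, differed by -0.36 (adjusted p = 0.0743), Fcer1g by -0.41 (0.210) and Tyrobp, the DAP12 adaptor, by -0.05 (0.916).

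Genes that load, release or restrain granules fell in part. Of 7 such genes 3 were lower in CD44KO(HFD): Unc13d, which primes granules for fusion (-0.68, adjusted p = 0.0220), Serpinb9, the inhibitor of granzyme B (-0.56, 0.0232), and Serpinb6b, another intracellular serpin (-0.73, 0.0349). Lyst and Stxbp2 did not pass, at -0.19 and 0.10. Among 8 tested genes of other effectors 1 was lower: Cst7, cystatin F, an inhibitor of granule cathepsins, was near background on all 5 CD44KO(HFD) liver arrays and was at least 1.23-fold lower (limma adjusted p = 0.00489). Lamp1, Srgn, Gzmd and Tnfsf10 did not pass, at -0.11, -0.21, -0.07 and -0.42. Ifng and Gzmm, named after their values were seen, were at -0.83 (adjusted p = 0.104) and -0.11 (0.755).

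Of 7 transcription factors and cytokine receptors of NK cells, Il2rb, the IL-2 and IL-15 receptor chain on cytotoxic lymphocytes (-0.83, adjusted p = 0.0103), and Tbx21, which encodes T-bet (-0.58, 0.0249), were lower with no overlap. Id2, Nfil3, Il2rg and Il21r did not pass and lay between -0.22 and 0.23, and the list's median was 0.05. Of 6 ligands and cytokines that act on NK cells, the stress ligands Raet1a (-0.71, 0.0314) and Raet1e (-1.57, 0.0268) fell, although the Raet1 genes are near-identical copies and the probe may read several. Il15 differed by -0.01 and Il18 by 0.41 (adjusted p = 0.0906).

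Of 14 chemokines and receptors that guide cytotoxic lymphocytes 7 were lower in CD44KO(HFD) liver and none higher, with a median of -0.95. Ccl5, which draws T and NK cells, differed by -2.11 (adjusted p = 0.0126) and Ccl4 by -1.75 (0.0353). Cx3cl1 differed by -1.28 (0.0169) and its receptor Cx3cr1, well above background on 5 WT(HFD) but 2 CD44KO(HFD) arrays, by -2.38 (0.0156). Cxcr3 (-0.61, 0.0133) and its ligand Cxcl9 (-1.09, 0.0499) also fell, and Cxcl10, Cxcl16, Ccl3 and Cxcr6 lay between -1.44 and -0.28 without passing. Several of these were listed by the study on these samples and are not independent evidence.

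Markers of other cells moved beside the members, and their part in the members' differences was not tested. Of 15 tested T cell genes 9 fell and 1, Icos, rose (0.90, adjusted p = 0.0129), and the list's median was -0.72. Cd8a, a CD8 T cell chain, was at least 4.10-fold lower (0.00296), and Cd3d (-1.04), Cd3g (-0.84), Lck (-0.90) and Lat (-0.75) fell, whereas Cd3e, Cd8b1, Zap70 and Cd4 were at 0.12, -0.21, 0.28 and 0.20 without passing. The Cd8b1 value is that of its brightest probe only. The study listed Cd8b1 as lower in CD44KO(HFD) liver on these arrays under another sequence entry, so its change depends on the probe. The summed level of the T cell list, dominated by its brightest genes, ran from 6.85 to 10.9 times the 75th percentile in WT(HFD) and from 8.15 to 9.91 in CD44KO(HFD). For the 10 members the same sum, in which Nkg7 was the brightest gene, ran from 1.17 to 1.90 and from 0.537 to 0.682, without overlap. None of 5 tested B cell genes passed. The macrophage list had 8 tested genes: Itgax (-2.01, adjusted p = 0.0284) and Mpeg1 (-0.96, 0.0103) fell, and 3 had a higher mean without passing. Among 8 tested Kupffer cell genes Marco (2.95, 0.0410) and Timd4 (2.99, 0.0414) rose, and the others did not pass. For the cell cycle, 6 of 7 tested genes fell, with Mki67 at -1.14 and Rrm2 at -1.16. Of 4 tested neutrophil genes Csf3r rose (0.59, 0.0276) and 3 had a lower mean without passing, and none of 6 dendritic cell genes passed.

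**Figure D3:**
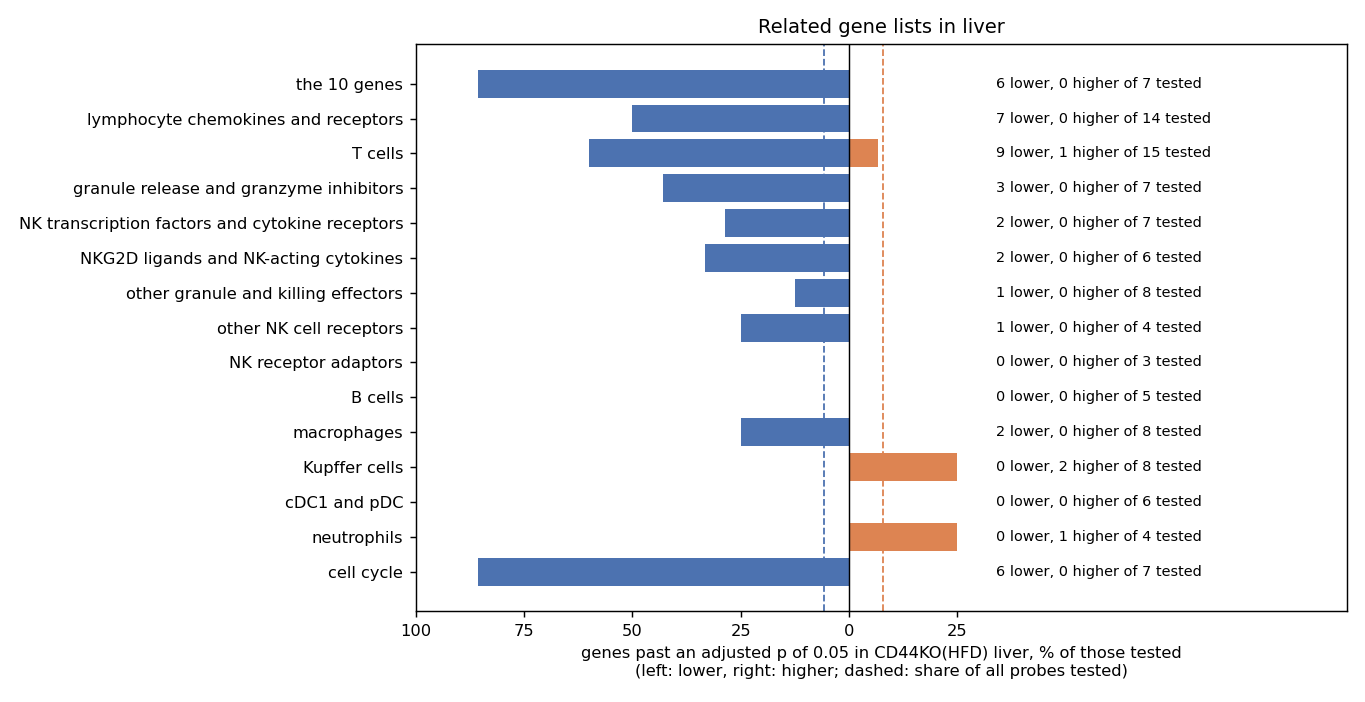
Share of tested genes past an adjusted p of 0.05 in CD44KO(HFD) liver for the 10 members and each related list, in percent, with lower genes as blue bars to the left and higher genes as orange bars to the right; dashed lines give the share of all probes tested (5.75% lower, 7.85% higher). Of the members 7 were tested, 3 of them through the WT(HFD) arrays only, as were Cst7, Cx3cr1, Cd8a and Top2a among the list genes that passed, and 9 of 15 T cell genes, 7 of 14 chemokine genes and 6 of 7 cell cycle genes were lower.

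The genes whose array-to-array deviations within liver groups ran most like the mean of the 7 tested members were named by Pearson r over the 10 liver arrays, as a description, since all values of an array share its RNA and scaling. The top symbols were H2-Q10 (r = 0.953), H2-K1 (0.945) and Psmb9 (0.944), the first a secreted and the second a classical class I gene and the third a proteasome subunit that makes class I peptides, followed by a pair of probes with no gene symbol. Class I genes are near-identical copies, so which of them the H2 probes read is uncertain. Psmb9 was 4.09 ± 0.19 in WT(HFD) and 3.29 ± 0.23 in CD44KO(HFD) liver (SD, n = 5; difference -0.81, limma adjusted p = 0.0103). H2-K1 differed by -0.35 (0.0289) and H2-Q10 by -0.19 (0.197). Pairs of members had r from -0.87 to 0.74 with a median of 0.32, so members did not deviate as one within the liver groups. The mean of the 7 was unweighted, and Gzmk, which did not pass, weighed most in it among the WT(HFD) arrays. Its range there was 5.03, against 1.71 for Gzmb, the next widest of the members tested. The likeness without Gzmk was not computed.

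**Figure D4:**
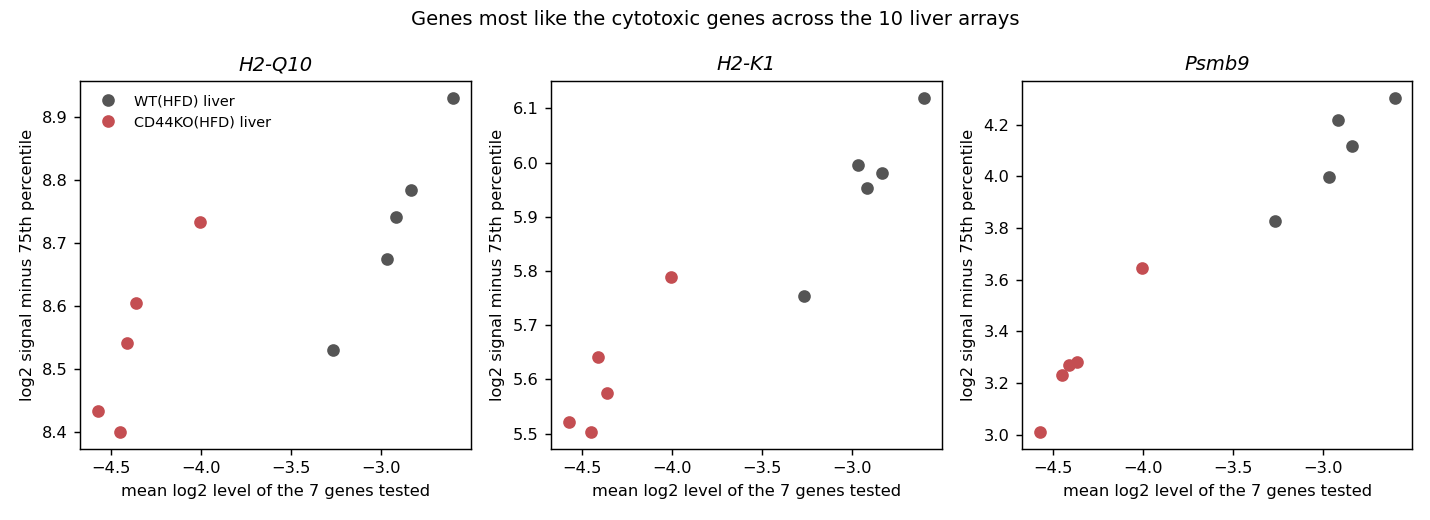
Log2 level of H2-Q10, H2-K1 and Psmb9 (vertical) against the mean log2 level of the 7 tested members (horizontal) on the 10 liver arrays, both relative to the 75th percentile, with grey points for WT(HFD) and red for CD44KO(HFD). Within each genotype the arrays with a higher mean also had higher class I and Psmb9 levels, and r after centring each group was between 0.944 and 0.953. The mean includes Gzmk, the member with the widest range in WT(HFD) liver.

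In WAT all 10 members were tested and none passed, although 8 of 10 had a lower mean in CD44KO(HFD), with a median difference of -0.94 against -0.06 over all probes. Nkg7 (-1.31) and Gzmb (-1.66) had differences close to those in liver, while Gzma (0.13) and Klrd1 (0.06) were near 0. Limma called 0.0398% of 27654 probes, 11 in all, and 0.0289% lower in CD44KO(HFD). At an unadjusted p under 0.05, 4111 probes and 3 members passed. With array weights 3 members passed after adjustment (Nkg7 at -1.21, Gzmb at -1.47 and Prf1 at -0.93), but the share of all probes passing in that fit was not counted. The WT(HFD) arrays were spread widely: the range of every member was wider in WT(HFD) than in CD44KO(HFD) WAT, which in liver held for 6 of 10. Without WT(HFD) WAT replicates 1 and 5 the SD was wider in WT(HFD) for 5 of 10. Within the slides that held both genotypes, 8 of 10 members had a lower CD44KO(HFD) mean on slide 4 and 7 of 10 on slide 5. Slide 4 held 2 arrays of each genotype, among them WT(HFD) replicate 1. Slide 5 held 1 CD44KO(HFD) and 3 WT(HFD) arrays, among them WT(HFD) replicate 5. CD44KO(HFD) replicates 1 and 4 sat on slide 6 without a WT(HFD) array.

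WT(HFD) replicates 1 and 5 carried the high values. Replicate 1 also carried epididymis genes, 6 of 7 well above background, at a summed level of 1.93 times the 75th percentile against 0.040 to 0.068 on the other WT(HFD) WAT arrays and 0.049 to 0.32 in CD44KO(HFD) WAT, and their part in the members' levels was not tested. Replicate 5 was the highest of the 10 WAT arrays for 6 members and replicate 1 for the other 4. The median over members above the CD44KO(HFD) mean was 2.08, 0.40, -0.14, 0.00 and 2.10 in WT(HFD) replicates 1 to 5. The T cell list was highest on the same arrays, at 1.496, 0.87, 0.33, 0.39 and 2.40, and the B cell list at 1.79, -0.29, 0.69, -0.52 and 2.94, and their part in the members' levels was not tested. Both arrays with high members were also the highest of the WT(HFD) arrays in B cell genes. Among the CD44KO(HFD) arrays replicate 3 was highest for 9 members, at 0.43 for members and 0.62 for T cell genes. Leaving out WT(HFD) replicates 1 and 5, a choice made after seeing the data, the median difference was -0.15 and none of the members passed (9 of 27094 probes did, or 0.0332%).

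**Figure D5:**
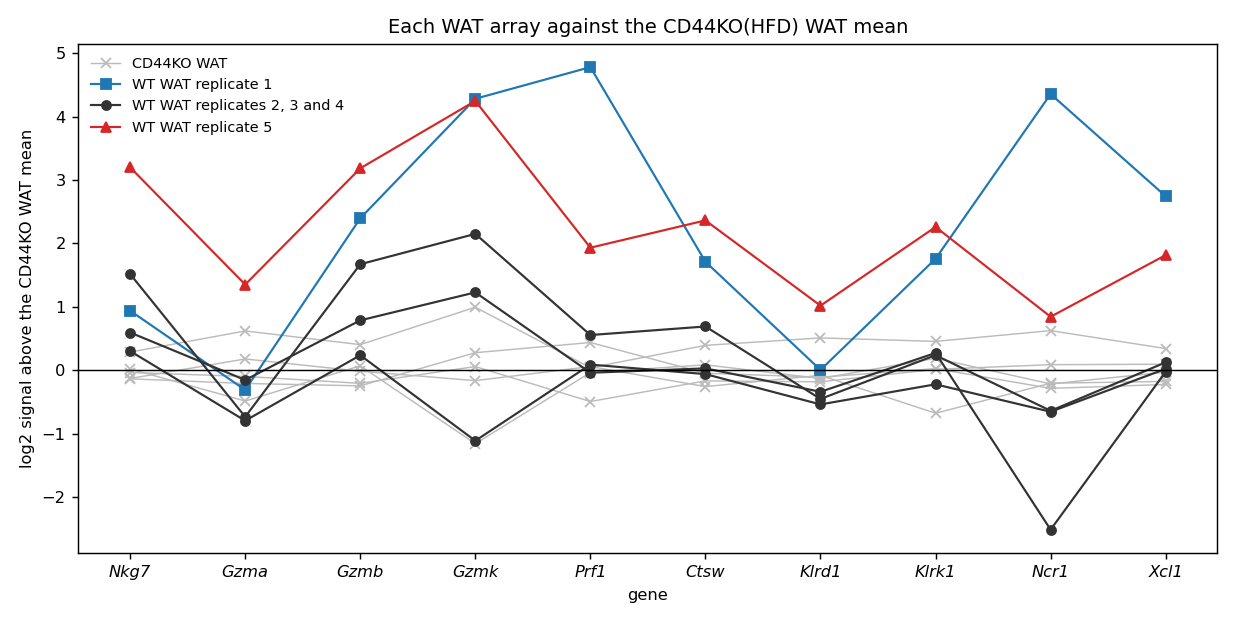
Log2 level of each member on each WAT array minus its CD44KO(HFD) WAT mean, with grey crosses for CD44KO(HFD), black circles for WT(HFD) replicates 2 to 4, blue squares for replicate 1 and red triangles for replicate 5. Replicate 5 is the highest of the 10 arrays for 6 members and replicate 1 for the other 4, and replicate 1 is not raised for Gzma and Klrd1.

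Nkg7 in WT(HFD) WAT was -0.64, -0.06, -1.28, -0.98 and 1.62, and in CD44KO(HFD) -1.71, -1.72, -1.29, -1.56 and -1.62. The groups did not overlap, although the lowest WT(HFD) array, replicate 3, lay just above the highest CD44KO(HFD) array, also replicate 3, and 2.07% of probes were lower without overlap. The difference was -1.31 (SE 0.47, limma adjusted p = 0.257), and -0.80 without WT(HFD) replicates 1 and 5. Gzmb was -1.48, -2.20, -3.64, -3.09 and -0.69 in WT(HFD) and -3.89, -4.12, -3.47, -3.81 and -4.08 in CD44KO(HFD). WT(HFD) replicate 3 lay inside the CD44KO(HFD) range, and the difference was -1.66 (SE 0.50, limma adjusted p = 0.208), or -0.90 without those arrays.

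For Prf1 the difference rested on the high arrays. WT(HFD) was -0.40, -4.63, -5.09, -5.22 and -3.25 and CD44KO(HFD) -5.12, -4.74, -5.14, -5.22 and -5.68, a difference of -1.46 (SE 0.82, limma adjusted p = 0.418) that shrank to -0.20 without replicates 1 and 5. Replicates 3 and 4 of WT(HFD) lay within the CD44KO(HFD) range. Gzmk was -2.21, -4.35, -7.61, -5.27 and -2.25 in WT(HFD) and -6.66, -6.22, -5.51, -7.66 and -6.44 in CD44KO(HFD), and the difference of -2.16 (SE 0.96, adjusted p = 0.331) went to -0.75. Ctsw (-0.95), Xcl1 (-0.94) and Klrk1 (-0.86) went to -0.22, -0.04 and -0.09.

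Gzma and Klrd1, both lower in CD44KO(HFD) liver, had means in WAT that were close between the genotypes. Gzma was -3.41, -3.84, -3.90, -3.26 and -1.75 in WT(HFD) WAT and -2.93, -3.31, -2.48, -3.59 and -3.20 in CD44KO(HFD), a difference of 0.13 (SE 0.40, limma adjusted p = 0.878). Klrd1 was -1.40, -1.86, -1.95, -1.75 and -0.39 and then -1.49, -1.52, -0.90, -1.54 and -1.59, a difference of 0.06 (SE 0.30, limma adjusted p = 0.922). In both genes WT(HFD) replicate 5 was the highest array and 2 or more WT(HFD) arrays lay below every CD44KO(HFD) array. Without replicates 1 and 5 the differences were 0.56 and 0.45. Ncr1 went from -0.28 (SE 1.04) to 1.27, its WT(HFD) levels being -0.29, -5.29, -5.30, -7.16 and -3.80 and its CD44KO(HFD) levels -4.85, -4.93, -4.02, -4.86 and -4.56.

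The related lists held no call in WAT either. The medians were -0.37 for the 11 tested NK receptors, -0.66 for other effectors, -0.83 for NK transcription factors and cytokine receptors, -0.65 for chemokines, -1.04 for T cells (17 of 18 lower) and -1.07 for B cells. Those for mast cells and for mesothelium, the lining of fat pads, were -3.22 and -2.32, and those for adipocytes (6 of 6 higher) and hepatocytes (5 of 5 higher) were 0.73 and 0.87. Over the 10 WAT arrays the genes most like the members' mean were Traf3ip3 (r = 0.994), Tnnt2 (0.984), 9330175E14Rik (0.984), Klra22 (0.981) and Zcchc18 (0.981). Without WT(HFD) replicate 1 they were Ifng (0.993), the NK receptor Klra7 (0.993), Traf3ip3 (0.992), the interferon-induced Irgm2 (0.991) and Cxcl9 (0.988) over 9 arrays. Pairs of members had a median r of 0.72 over the 10 arrays and 0.84 over the 9.

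Whether the genotype difference itself differed between liver and WAT was tested over 28989 probes, of which 1.15% passed, and no member did. Gzma had the largest such difference (1.62, SE 0.53, limma adjusted p = 0.136), being 1.49 lower in liver and 0.13 higher in WAT, and Klrd1 the next (1.03, SE 0.41, adjusted p = 0.229). These were the 2 members with an unadjusted p under 0.05. Without WT(HFD) WAT replicate 5 Gzma passed (1.99, adjusted p = 0.0315), and with array weights Gzma (1.71, 0.0133) and Klrd1 (1.08, 0.0309) did. The share of all probes passing was not counted for either fit. For Nkg7, Gzmb, Prf1 and the rest the adjusted p was at least 0.55, which does not show that the tissues respond alike.

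In WT(HFD) the members' levels relative to the 75th percentile differed between tissues for 3 of 10: Klrd1 was higher in WAT by 1.21 (limma adjusted p = 0.00116), Klrk1 by at least 1.44-fold (0.000765) and Ncr1 by at least 1.32-fold (0.0410). Since 34.3% of all probes were higher in WAT by the same test, and the tissues sat on different slides and scanners, this is a description of the scaled signals. Under normexp the difference turned for Klrk1 (-0.34) and Ncr1 (-0.012), and Klrk1 passed as lower in WAT (-0.50, adjusted p = 0.0453) when CD44KO(HFD) liver replicate 3 and WT(HFD) WAT replicate 4 were left out of that fit. Without WT(HFD) WAT replicates 1 and 5, Prf1 passed as lower in WAT (-1.05, adjusted p = 0.00791). The share of all probes lower in WAT was not counted for this fit or for the normexp fits. In the main limma fit 21052 of 28989 probes had an unadjusted p under 0.05, in either direction. The Ncr1 call was lost without WT(HFD) liver replicate 3, 4 or 5 or without WT(HFD) WAT replicate 1 or 5. Within each tissue the order of levels cannot be read between genes, because probes differ in brightness for the same amount of RNA.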

How the data were processed

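The authors deposited scanner output of 20 one-colour Agilent 44k mouse arrays, written by Feature Extraction 9.5, with processed signal intensity per spot and no background subtraction. Control spots were left out, spots of a probe were averaged, and log2 intensity was centred on each array's 75th percentile. Symbols were updated by accession for 22951 probes. A probe entered a test when at least 3 arrays of either group called it well above background, and tests used limma 3.58.1 (lmFit, eBayes, R 4.3.3) within each tissue, with Benjamini-Hochberg adjustment and a threshold of 0.05, and across all 20 arrays for the interaction and tissue comparisons. Alternatives were background correction, scaling, filter, array weights, slide and replicate-number blocks and leaving out arrays. Members and lists were chosen with earlier results of these data known. List genes named are those that passed in either tissue and up to 4 more by brightness. 1 list gene is not reported here. The labels number samples without naming animals, so p-values measure the spread between samples. The number of arrays limits the precision. The fits were run on simulated arrays with independent noise and the same spread in both groups. That setting does not match the unequal spread of the WAT arrays.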

Additional observations from a re-analysis of the deposited data

Results flagged for a closer look

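Of 40 sets of 5 arrays (10 members in 4 groups) 2 held an array set apart from the other 4 by Dixon's test at 95%, a level at which chance gives about 1 in 20. Both were Klrd1: in WT(HFD) liver replicate 4 was low at -3.53, with a gap of 0.779 of the group's range, and in CD44KO(HFD) WAT replicate 3 was high at -0.90, with a gap of 0.853. Without that liver array Klrd1 was also lower in CD44KO(HFD) and passed, as it did with all 10 liver arrays. Over the 10 fits that left 1 liver array out it passed in 2.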

How the results depend on the processing

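In liver 6 members passed as lower. Normexp left 0 and a fit of all 20 arrays 2 (Gzma and Gzmb), normexp without CD44KO(HFD) replicate 3, whose fitted background was strongly negative, 5, and leaving out 1 array 4 to 6. In WAT 0 passed, against 3 with array weights, 1 (Gzmb) in the fit of all 20 arrays and 0 to 0 with 1 array left out. For the difference between tissues 0 passed, against 2 with array weights, 1 without both WT(HFD) WAT replicates 1 and 5, and 0 to 1 with 1 array left out, the 1 being without WT(HFD) WAT replicate 5. For WT(HFD) WAT over liver 3 passed, 1 under normexp with or without that array and WT(HFD) WAT replicate 4, of like background, and 2 to 4 with 1 array left out. For the alternatives given here for WAT, for the difference between tissues and for WT(HFD) WAT over liver, the share of all probes passing was not counted. In liver the untested Klrk1, Ncr1 and Xcl1 turned under normexp (0.35, 0.27 and 0.14). Normexp added an offset of 50 to each corrected signal. The 75th percentile of the processed signal was 433 to 575 in liver and 1541 to 2792 in WAT. The part of the offset in these changes, and their cause, were not tested.

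Differences in WAT that turned were Gzma under normexp (-0.032), Klrk1 under quantile normalization (0.10), and Ncr1 with array weights (1.01), median scaling (0.20) or without both arrays (1.27). With 1 array left out they ran from -0.037 to 0.50 for Gzma, -0.064 to 0.33 for Klrd1 and -0.98 to 0.74 for Ncr1. Differences between tissues turned under normexp for Nkg7 (-0.36), Gzmb (-1.01), Gzmk (-1.12), Prf1 (-1.22), Ncr1 (-1.08) and Xcl1 (-0.95), and without those 2 arrays were -0.34, -0.83, -0.75, -0.93, -0.72 and -0.54. Klrk1 turned under quantile normalization (0.076) and without both arrays (0.021), as did Ctsw (0.18). Ranges with 1 array left out were -0.24 to 0.48 for Nkg7, -0.13 to 0.61 for Gzmb, -0.63 to 0.89 for Gzmk, -0.15 to 1.05 for Prf1 and -0.51 to 1.21 for Ncr1. WT(HFD) WAT minus liver turned under normexp for Gzma (-0.36), Prf1 (-0.21), Klrk1 (-0.34), Ncr1 (-0.012) and Xcl1 (-0.30), and without those 2 arrays at -0.50, -0.21, -0.50 (adjusted p = 0.0453), -0.036 and -0.40. It also turned for Gzma under quantile normalization (-0.10), for Prf1 with array weights (-0.75), and without both arrays for Gzma (-0.028), Gzmb (-0.25), Prf1 (-1.05, adjusted p = 0.00791), Ctsw (-0.21) and Xcl1 (-0.019). For these fits of WT(HFD) WAT against liver the share of all probes passing was not counted. With 1 array left out Gzmk ran from -0.84 to 0.68 and Prf1 from -0.62 to 0.59.

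Within each tissue, WT(HFD) and CD44KO(HFD) samples of the same number were compared by the correlation of their deviations. It was -0.04 to 0.42 in liver and -0.21 to 0.09 in WAT. The best match was the same number for 1 replicate in liver (replicate 4, 0.42) and for 0 in WAT. The labels do not name animals, and liver and WAT samples of the same number were not compared. The main fits across both tissues took no account of such pairing. With the replicate number as a block 6 members passed in liver and 0 in WAT.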
